A study of Mus musculus with 2 samples.

Results

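Imprinted genes are the subject here: 45 mouse genes that are known, in at least some tissue, to be read from only the maternal or only the paternal copy of a chromosome, with Igf2, H19 and their receptors left out. The genes were given by name, not by their values, and all 45 were found among 55536 annotated genes. They lie in 16 clusters on 8 chromosomes, 17 of them on chromosome 7. From textbook knowledge, 20 are read mainly from the paternal copy and 10 mainly from the maternal copy. The other 15 are imprinted only in certain tissues or for certain transcripts.

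Total RNA was sequenced from the hearts of female B6CASTF1/J mice, first-generation crosses between the strains C57BL/6J and CAST/EiJ, at an age of 14 days. There was 1 group of 2 libraries, replicate 1 and replicate 2, with no treatment, each from 300 ng of RNA plus ERCC spike-in RNAs. Both libraries carry 1 donor record and a common description of 3 females, yet their tissue labels carry separate animal numbers. The SD over the libraries (n = 2) may thus hold a technical part, no groups could be compared, and an exact two-sided sign test on a pair of values cannot go below p = 0.5. Which parent was which strain, and the share of reads from each parental copy, were not analysed here, so every value below is the sum over both copies.

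In an imprinted cluster, a stretch of DNA that is methylated in only the egg or only the sperm sets which copy of the neighbouring genes is read. Clusters often hold a long noncoding RNA beside protein-coding genes, and many of the proteins promote or restrain growth before and after birth. Many imprinted genes are high in the fetal heart and fall after birth, and some keep a single-copy pattern in the adult heart. The methylated stretch often sits at a start site, so that a gene with several start sites can be imprinted from one and not from another.

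The libraries come with 2 deposited quantifications, the first with the column names of RSEM and the second with those of kallisto, and values are of the first unless the second is named. The starts of Mest, Snrpn and Grb10 are compared between them below, so the 300 bases around the RefSeq start closest to each (250 before and 50 after, GRCm38.p6) are shown. The start of the annotated transcript Snrpn-201, at 60005111, lies just downstream of the first Snrpn window and not in it. Capitals mark the hexamer TGCCGC or, on the opposite strand, GCGGCA, the letters that the imprint-keeping zinc finger protein ZFP57 binds when they are methylated. The first of each pair is the start inside the known methylated region of the gene for Mest and Snrpn, and the main start outside brain for Grb10.
Mest, chr6:30737800-30738099, plus strand: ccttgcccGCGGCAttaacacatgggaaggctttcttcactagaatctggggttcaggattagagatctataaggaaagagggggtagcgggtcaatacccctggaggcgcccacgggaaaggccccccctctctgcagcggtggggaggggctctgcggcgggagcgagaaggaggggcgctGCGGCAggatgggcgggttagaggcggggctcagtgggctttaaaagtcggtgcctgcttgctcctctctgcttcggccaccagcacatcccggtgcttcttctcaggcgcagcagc
Mest, chr6:30733256-30733555, plus strand: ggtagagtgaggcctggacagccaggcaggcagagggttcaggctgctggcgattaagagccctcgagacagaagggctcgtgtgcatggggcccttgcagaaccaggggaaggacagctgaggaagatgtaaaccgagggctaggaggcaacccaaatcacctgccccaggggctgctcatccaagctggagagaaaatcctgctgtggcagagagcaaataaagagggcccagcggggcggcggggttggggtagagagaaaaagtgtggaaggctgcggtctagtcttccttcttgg
Snrpn, chr7:60005150-60005449, minus strand: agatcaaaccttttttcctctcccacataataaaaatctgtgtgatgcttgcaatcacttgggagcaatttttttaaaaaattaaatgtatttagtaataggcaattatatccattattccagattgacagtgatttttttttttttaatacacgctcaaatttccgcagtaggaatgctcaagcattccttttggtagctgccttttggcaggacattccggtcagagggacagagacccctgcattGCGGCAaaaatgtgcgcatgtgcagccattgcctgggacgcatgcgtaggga
Snrpn, chr7:60140176-60140475, minus strand: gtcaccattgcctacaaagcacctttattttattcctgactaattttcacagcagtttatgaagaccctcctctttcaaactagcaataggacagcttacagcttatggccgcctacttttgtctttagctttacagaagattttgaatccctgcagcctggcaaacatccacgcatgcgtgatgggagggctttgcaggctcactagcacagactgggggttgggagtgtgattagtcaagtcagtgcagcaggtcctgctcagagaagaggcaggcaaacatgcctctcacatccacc
Grb10, chr11:12037371-12037670, minus strand: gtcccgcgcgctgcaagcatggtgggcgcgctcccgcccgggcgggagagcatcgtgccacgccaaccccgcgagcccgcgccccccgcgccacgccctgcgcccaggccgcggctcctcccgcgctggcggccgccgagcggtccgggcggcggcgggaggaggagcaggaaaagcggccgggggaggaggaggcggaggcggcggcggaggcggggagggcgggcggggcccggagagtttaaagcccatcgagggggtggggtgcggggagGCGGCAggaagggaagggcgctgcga
Grb10, chr11:12027922-12028221, minus strand: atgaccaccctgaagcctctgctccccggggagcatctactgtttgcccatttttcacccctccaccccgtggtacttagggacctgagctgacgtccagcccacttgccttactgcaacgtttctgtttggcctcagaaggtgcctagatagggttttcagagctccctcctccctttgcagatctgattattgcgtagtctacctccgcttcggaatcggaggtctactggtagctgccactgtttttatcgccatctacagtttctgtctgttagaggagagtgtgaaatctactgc
The first Mest window held the hexamer 2 times and 17 CpG dinucleotides, and the upstream one held no hexamer and 8 CpG. For Snrpn the counts were 1 hexamer and 7 CpG in the first window and 0 and 3 in the upstream one, and for Grb10 they were 1 and 45 in the first and 0 and 9 in the downstream one. Searched on both strands, the hexamer was found in 13 of 55 windows of the 39 imprinted genes that had one (23.6%), against 11.6% of all 32851 promoter windows of the same length. The windows of the imprinted genes also had more CpG, with a median of 15 per window against 7 over all windows, and some windows of the same gene overlap. These matches describe letters, not sites of binding.

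Most of the imprinted genes were expressed in the P14 heart, over a very wide range of levels. TPM (a count of transcripts corrected for transcript length and scaled to the library) was at least 1 in both libraries for 32 of the 45, against 22.8% of all annotated genes. Among the 40 that are protein-coding, 29 passed this level, against 52.3% of all protein-coding genes. Of the 5 long noncoding RNAs, 3 passed it. The median over the 45 genes was 6.60 TPM in replicate 1 and 5.86 TPM in replicate 2, with 17 genes at 10 TPM or more in both. The genes together held 0.194% of the expected counts in replicate 1 and 0.207% in replicate 2.

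**Figure D1:**
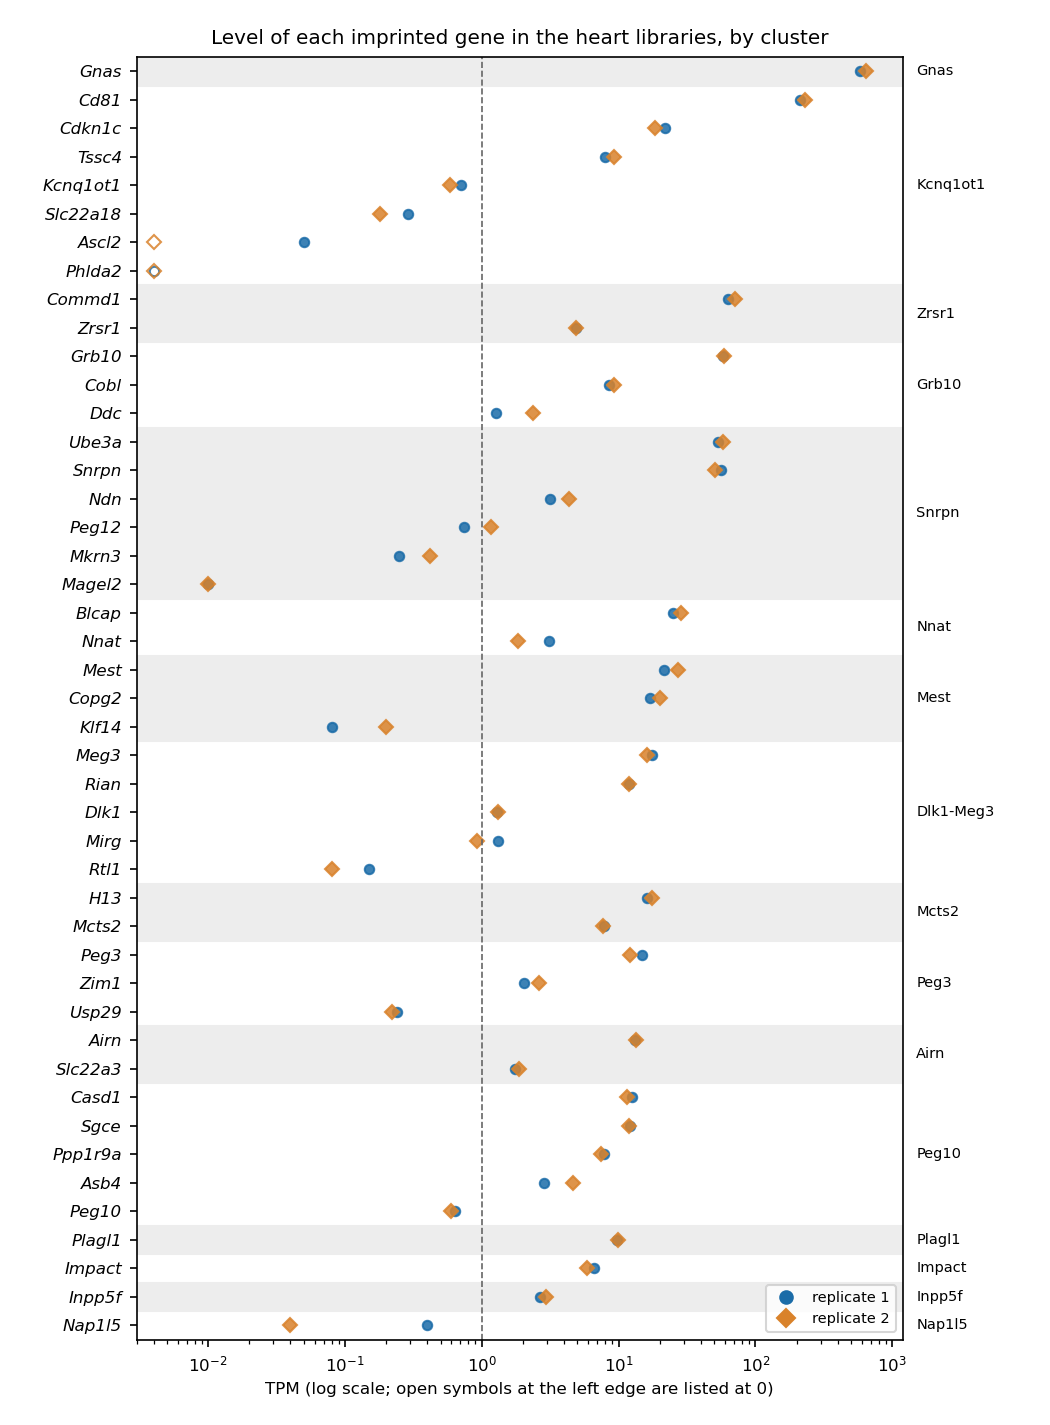
TPM of each imprinted gene (log scale) in replicate 1 (circles) and replicate 2 (diamonds), grouped by cluster, with the dashed line at 1 TPM. Gnas stands highest at 579 and 643 TPM, 32 genes lie past the line in both libraries, and Phlda2 is listed at 0 in both.

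The libraries were those of heart muscle by their defining markers. All 5 cardiomyocyte markers were above 10 TPM in both, with a median of 3359 TPM in replicate 1 and 3446 TPM in replicate 2. Depth was similar, with 36404376 expected counts in replicate 1 and 34569708 in replicate 2. RNA of other tissues differed between them. Of the 10 airway and lung genes, 9 were higher in replicate 1, with a summed level of 181 TPM in replicate 1 and 11.2 TPM in replicate 2, while Sftpc had 0 counts in replicate 1 and 16 in replicate 2. The 5 brown fat genes summed to 948 TPM in replicate 1 and 1023 TPM in replicate 2, most of it Cox8b, which heart muscle expresses too. Ucp1, the brown fat uncoupling protein, was at 32.6 TPM in replicate 1 and 47.8 TPM in replicate 2. The skeletal muscle myosin genes Myh1 and Myh4 had 0 counts in replicate 1, and 63.3 and 18.3 counts in replicate 2, and the 3 pancreas and liver genes had 1 count in replicate 1 and 21 in replicate 2. The 4 erythroid genes summed to 24083 TPM in replicate 1 and 18476 TPM in replicate 2, and the 5 macrophage genes to 74.5 and 58.7 TPM. The 8 neuron and glia genes summed to 11.3 and 9.51 TPM, and the 5 epicardial genes to 37.7 and 36.45 TPM. In such bulk tissue, fewer cells of a type and less RNA per cell cannot be told apart.

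Gnas was the highest imprinted gene by a wide margin. It encodes the stimulatory G protein subunit Gs alpha, which couples beta-adrenergic receptors to adenylyl cyclase, and it lies on chromosome 2 (174284320 to 174346744, mm10, plus strand). It had 26458 expected counts in replicate 1 and 28076 in replicate 2, or 579 and 643 TPM (mean 611 ± 45.7, SD, n = 2). That was 45.2% of the TPM sum of all 45 genes in replicate 1 and 46.5% in replicate 2. The Gnas locus has 4 kinds of start, from upstream to downstream those of the neuroendocrine protein Nesp, of the extra-large form XL alpha s, of the untranslated exon 1A and of Gs alpha itself, and only some of these are imprinted in all tissues.

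Nearly all of the Gnas TPM came from transcripts that begin at the Gs alpha start (174330006 to 174330287) in the first quantification, 98.5% in replicate 1 and 97.1% in replicate 2. The farthest upstream group of starts held 0.235% and 0.270% in replicates 1 and 2, and the next one, at 174297859, held 0.0311% and 0.0653%. In level, the farthest upstream group was at 1.36 TPM in replicate 1 and 1.74 TPM in replicate 2 (4.06 and 1.85 in the second quantification), and the next one at 0.18 and 0.42 TPM. Both quantifications thus assigned a small part of Gnas to transcripts from these imprinted protein-coding starts, in both libraries. Whether reads covered the first exons of those transcripts was not tested. The group at exon 1A (174327570 to 174328023) was where the quantifications parted: it held 0.739% and 1.30% in replicates 1 and 2 in the first, and 20.95% and 26.02% in the second. Most of that value in the second quantification was 1 noncoding record of 607 bases, Gnas-218, at 129 and 195 TPM in replicates 1 and 2 there, against 0 and 4.54 TPM in the first.

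The 3 Gs alpha transcripts with the highest levels shared most of the gene, and they differ at exon 3, which is why their junctions are shown, read from the annotated transcripts. The capitals mark exon 3 (chr2:174336747-174336791) in the long form Gnas-208, and in Gnas-207 the extra bases at the start of the following exon (chr2:174341650-174341652).
Gnas-208: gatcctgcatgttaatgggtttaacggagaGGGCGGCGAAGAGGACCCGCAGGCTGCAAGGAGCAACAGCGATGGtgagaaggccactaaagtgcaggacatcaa
Gnas-207: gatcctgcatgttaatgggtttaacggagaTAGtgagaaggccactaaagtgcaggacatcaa
Gnas-206: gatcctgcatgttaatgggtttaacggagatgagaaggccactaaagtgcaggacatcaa
Gnas-208, with exon 3, held 37.1% of Gnas in replicate 1 and 37.9% in replicate 2. The short forms had 27.2% and 26.6% (Gnas-207) and 34.0% and 32.3% (Gnas-206) in replicates 1 and 2. Counted among these 3 transcripts only, the long form took 37.8% and 39.2% in the first quantification and 35.2% and 36.6% in the second, so the split of long and short forms differed little between programs or libraries. The division of the short forms did differ, since the second quantification gave Gnas-207 34.8% and 33.6% of the gene and Gnas-206 15.7% and 12.7%.

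The Kcnq1ot1 cluster of chromosome 7 held the next highest gene and the widest range of levels. Cd81 (143052739 to 143067934, plus strand), a tetraspanin of the cell surface, was at 212 TPM in replicate 1 and 231 TPM in replicate 2 (221 ± 13.6, SD, n = 2). Cdkn1c, which encodes the cyclin-dependent kinase inhibitor p57 and restrains growth, was at 21.8 and 18.4 TPM in replicates 1 and 2, and Tssc4, which helps assemble the U5 splicing particle, at 7.94 and 9.33 TPM. The genes of this cluster that are best known from placenta were close to 0. Phlda2 had no count in either library, and 0 counts leave room for a level of up to 3 counts, 0.0841 and 0.0861 CPM (counts divided by library size and scaled) in replicates 1 and 2. Ascl2, a transcription factor of the trophoblast, had 2 and 0 counts, and the transporter gene Slc22a18 had 11 and 7 (0.29 and 0.18 TPM).

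Kcnq1ot1 (143203458 to 143296549, minus strand), the long noncoding RNA that silences this cluster on the paternal copy, depended most on the correction for length. It had 1853 counts in replicate 1 and 1490 in replicate 2, the seventh highest mean count of the 45 genes. Its annotated record is a single unspliced exon of 93092 bases, and its level was 0.71 TPM in replicate 1 and 0.59 TPM in replicate 2, rank 35. On the TPM scale it stood 21.5-fold below Kcnq1, the potassium channel gene that it overlaps on the other strand, a log2 ratio of -4.42 ± 0.25 (SD, n = 2), while its counts were above those of Kcnq1 (1853 against 1052 in replicate 1, 1490 against 1070 in replicate 2). The label of the spike-ins speaks of stranded libraries, but the sources do not say whether counting used strand, so reads of such overlapping pairs could be shared.

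**Figure D2:**
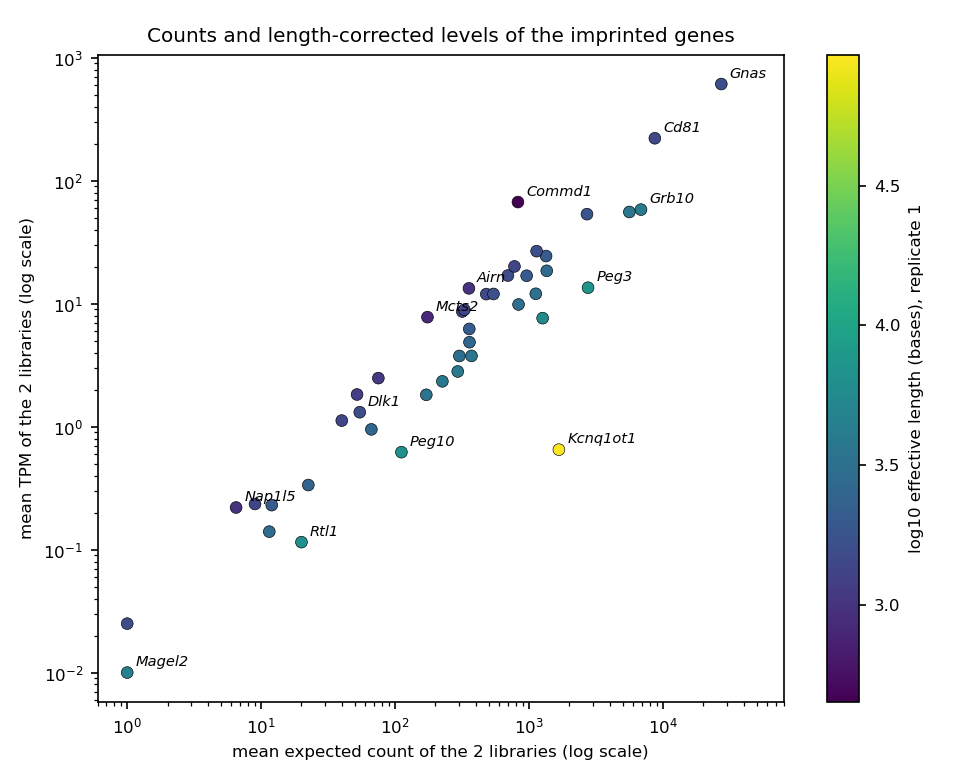
Mean TPM against mean expected count of the imprinted genes with any count (log scales), coloured by effective length in replicate 1. Kcnq1ot1, with an effective length of 92993 bases, lies far below the other genes of its count, and Commd1, with 449 bases, lies above them.

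Airn showed the opposite position. This noncoding RNA, read from the paternal copy, silences the Igf2r cluster on chromosome 17, and its level was 13.2 and 13.5 TPM in replicates 1 and 2 from only 362 and 350 counts. Airn is annotated here as spliced transcripts with an effective length of 979 bases over a span of 118826 bases, so its TPM covers those exons and not the rest of the span, while the RNA is known to be mostly unspliced in mouse. Slc22a3, an organic cation transporter that Airn silences in placenta, was at 1.76 and 1.87 TPM. On the TPM scale Igf2r, which Airn overlaps, stood above Airn by 4.17-fold, with 54.7 and 56.3 TPM in replicates 1 and 2.

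Grb10 was high among the imprinted genes, Plagl1 and Peg3 lay lower, and Usp29 was near the bottom. Grb10 (chromosome 11, 11930508 to 12038683, minus strand), an adaptor protein that dampens signalling by the insulin receptor, was the fourth highest imprinted gene, at 57.8 TPM in replicate 1 and 58.6 TPM in replicate 2. The mean was 58.2 ± 0.580 TPM (SD, n = 2). Plagl1, a zinc finger transcription factor that arrests the cell cycle, was at 9.76 and 9.94 TPM. The zinc finger gene Peg3 was at 14.9 TPM in replicate 1 and 12.1 TPM in replicate 2, with 3056 and 2463 counts. Its neighbour Usp29, a ubiquitin peptidase that starts close by on the other strand, had 14 and 10 counts (0.24 and 0.22 TPM), and Zim1, another zinc finger gene, was at 2.04 and 2.63 TPM.

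Grb10 was read mainly from its upstream start at 12037401, whose window is printed above, and this held in both quantifications. That start held 77.1% and 82.4% of Grb10 in replicates 1 and 2 in the first quantification, and 71.5% and 67.5% in the second. The start at 12027971, whose window is also printed above, held 3.96% and 3.26% in the first and 4.89% and 4.18% in the second. The next group downstream (12026324 to 12026732) held more, 16.1% and 11.7% in the first and 6.67% and 4.62% in the second. The start at 11938616 held 0 in the first and 12.58% and 16.95% in the second. The Grb10 neighbours Cobl, upstream, and Ddc, downstream, were lower. Cobl, an actin nucleator, was at 8.57 and 9.28 TPM, and Ddc, the aromatic amino acid decarboxylase, at 1.28 and 2.37 TPM. A Ddc transcript with its own first exon is known to be imprinted in the embryonic mouse heart. In the first quantification, transcripts that start at 11890369 to 11890408, not at the farthest upstream start, held 68.8% and 81.8% of Ddc in replicates 1 and 2, but the second gave them 55.4% and 33.8%, from 42 and 62 counts for the whole gene.

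In the Mest cluster, the hydrolase gene Mest and its neighbour Copg2 stood close together. Mest (chromosome 6, 30723547 to 30748465, plus strand) was at 21.4 TPM in replicate 1 and 27.35 TPM in replicate 2, and Copg2, a coat protein of transport vesicles whose 3-prime end overlaps that of Mest, at 16.9 and 20.1 TPM. The log2 ratio of Mest over Copg2 was 0.39 ± 0.07 (SD, n = 2) on the TPM scale. In expected counts it was -0.07 in replicate 1, with 1264 and 1328 counts, and 0.03 in replicate 2, with 1418 and 1385, so without the correction for length the order of the pair was not the same in both libraries. Klf14, an intronless transcription factor gene nearby, had 7 and 16 counts.

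Mest starts were divided differently by the programs. The first quantification put 98.1% and 98.2% of Mest in replicates 1 and 2 on the downstream start (30738050 to 30738055), the one with both hexamers in its window. The second put 70.2% and 56.9% there, and 28.0% and 41.0% on the upstream start (30733454 to 30733506), to which the first gave 0. The main upstream record, Mest-210, is 2383 bases long and shares its end with Mest-211 of the downstream start.

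Snrpn was the extreme case of this kind. It encodes the splicing protein SmN (chromosome 7, 59982495 to 60140219, minus strand) and was at 56.1 TPM in replicate 1 and 50.8 TPM in replicate 2, the sixth highest imprinted gene. The first quantification placed 100% of it on Snrpn-201, which starts at 60005111, in both libraries, and the second placed 100% on Snrpn-202, which starts at 60140219. The records are 1932 and 2076 bases long and end at nearly the same base. The small reading frame Snurf, which lies at the front of the same RNA and has a gene record of its own, took 515.94 and 412.48 counts in replicates 1 and 2 in the first quantification (157 and 130 TPM) and 0 in the second. Snrpn and Snurf together had 3406 and 2941 counts in replicates 1 and 2 in the first, beside 3109 and 2716 for Snrpn in the second. In counts, the transcription unit was therefore similar in both, but its start was not settled by these tables. On the TPM scale it was not similar. Snurf alone, with an effective length of 117 bases, stood in the first above the 62.2 and 58.0 TPM of Snrpn in the second.

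**Figure D3:**
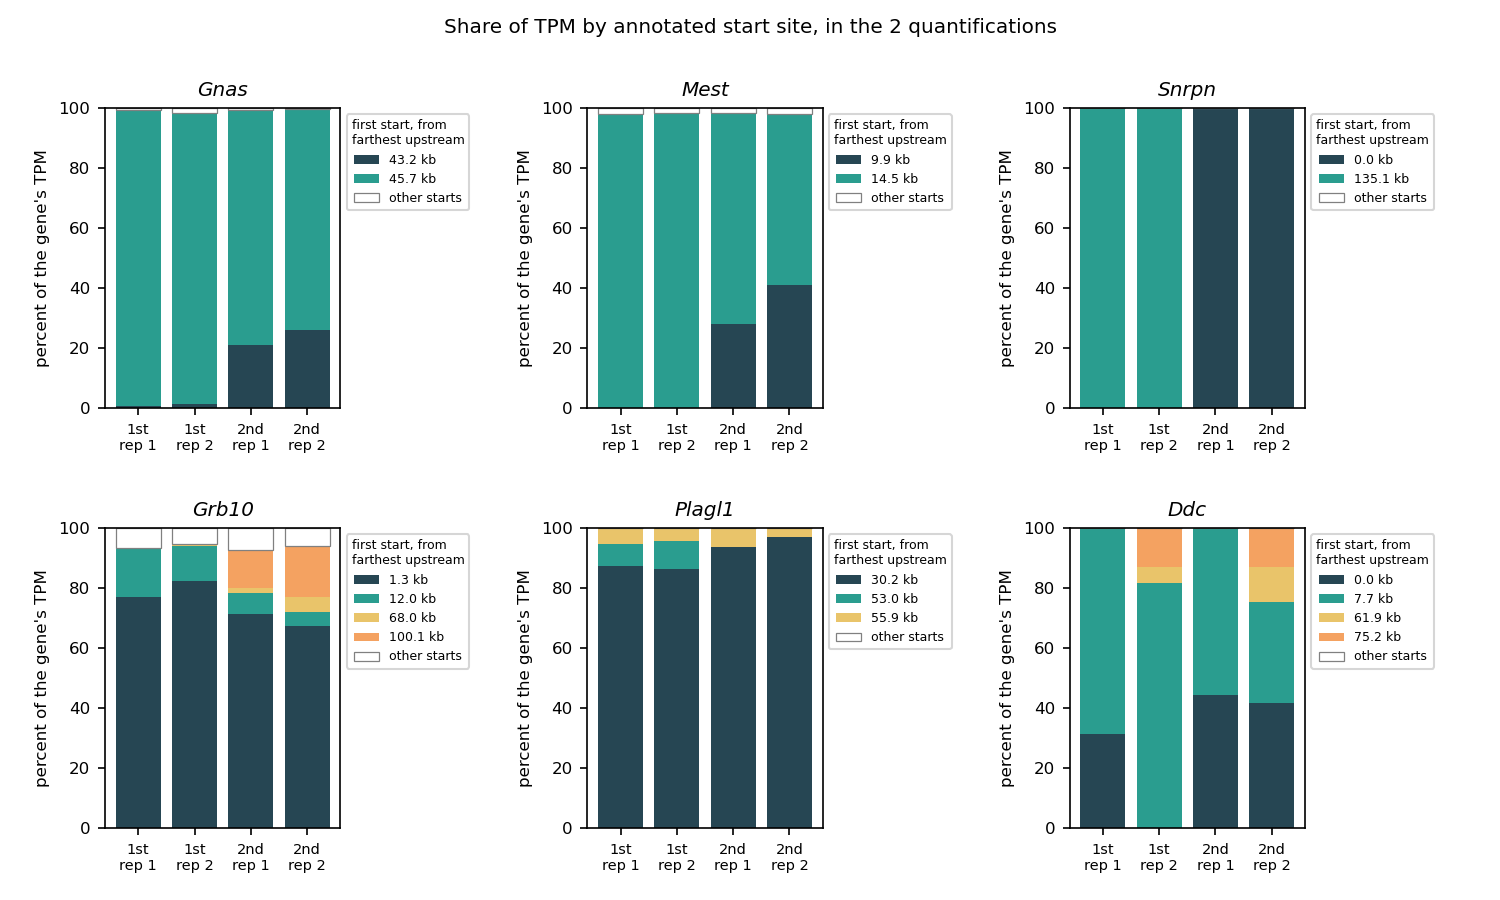
Percent of each gene's TPM by annotated start, as stacked bars, for replicates 1 and 2 in the first and in the second quantification, with starts named by their distance from the farthest upstream one. Snrpn changes wholly between the quantifications, Mest and Gnas in part, and Plagl1 keeps its main start in all 4 bars.

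In the Prader-Willi region, Ndn, Peg12, Mkrn3 and Magel2 were far below Snrpn, while Ube3a was close to it. Ndn, which encodes necdin, a growth suppressor of the MAGE family, was at 3.18 TPM in replicate 1 and 4.34 TPM in replicate 2. Peg12, an intronless relative of the Frat genes that bind the kinase GSK3, was at 0.74 and 1.16 TPM, and the ring finger gene Mkrn3 at 0.25 and 0.42 TPM. Magel2, a partner of ubiquitin ligases, had 1 count in each library. Ube3a, the ubiquitin ligase gene of the same cluster that is imprinted in neurons, was at 53.4 and 58.0 TPM. Snrpn over Ube3a gave log2 ratios of 0.07 in replicate 1 and -0.19 in replicate 2, so their levels did not separate.

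In the Dlk1-Meg3 cluster the maternal noncoding RNAs Meg3 and Rian stood above the paternal protein-coding genes. Meg3 (chromosome 12, 109541001 to 109571726, plus strand) was at 17.6 TPM in replicate 1 and 16.3 TPM in replicate 2, and Rian, a host of small nucleolar RNAs, at 11.92 and 12.00 TPM. Mirg, a host of microRNAs, was at 1.32 and 0.92 TPM. The protein-coding Dlk1, a membrane protein that holds back the maturing of fat cells and of other tissues, was at 1.30 and 1.32 TPM, 12.9-fold below Meg3 (log2 ratio -3.69 ± 0.10, SD, n = 2). Rtl1, a gene derived from a retrotransposon and known from placenta, had 26 and 14 counts (0.15 and 0.08 TPM). The 41 microRNA and small nucleolar RNA genes inside Meg3, Rian, Mirg and Rtl1 all had 0 counts, but 39 of them had an effective length of 0 in these tables, so they could not be measured.

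The Peg10 cluster held several genes at a like level. Casd1, which adds acetyl groups to sialic acids, was at 12.45 and 11.6 TPM in replicates 1 and 2, Sgce, epsilon sarcoglycan of the muscle membrane, at 12.1 and 11.85 TPM, and Ppp1r9a, the actin-binding neurabin I, at 7.78 and 7.47 TPM. Asb4, a subunit of ubiquitin ligases, was lower at 2.83 and 4.68 TPM. Peg10, derived from a retrotransposon and needed in placenta, was at 0.64 and 0.60 TPM. Sgce and Peg10 start next to each other on opposite strands, and Sgce was 19.4-fold higher on the TPM scale (log2 ratio 4.27 ± 0.04, SD, n = 2). In expected counts, not corrected for length, the log2 ratio was 2.28 ± 0.04 (SD, n = 2).

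Imprinted genes that lie inside an intron of another gene were all below their host. Zrsr1, a splicing-related gene that arose as a processed copy, was at 4.86 TPM in both libraries, while Commd1, its host and a regulator of copper handling and of NF-kappaB, was at 62.8 TPM in replicate 1 and 71.25 TPM in replicate 2. Nnat, which encodes the small membrane protein neuronatin, was at 3.12 and 1.84 TPM inside Blcap at 24.9 and 28.5 TPM. Mcts2 was at 7.83 and 7.71 TPM inside H13, a signal peptide peptidase gene, at 16.2 and 17.5 TPM. Nap1l5 had 11 and 2 counts inside Herc3 at 32.8 and 36.05 TPM. The log2 ratios of nested gene over host were -3.78 ± 0.13, -3.48 ± 0.68, -1.12 ± 0.10 and -8.09 ± 2.44 (SD, n = 2) in the same order. In expected counts, not corrected for length, their means were -1.20, -3.98, -2.46 and -8.95. Impact, a regulator of translation, and Inpp5f, a phosphoinositide phosphatase with an imprinted transcript that begins inside the gene, were at 6.60 and 5.86 TPM and at 2.66 and 2.96 TPM.

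Mcts2 could in principle share reads with Mcts1, the X-linked gene it was copied from, so the start of their coding sequences is shown, with capitals where they differ.
Mcts2-201: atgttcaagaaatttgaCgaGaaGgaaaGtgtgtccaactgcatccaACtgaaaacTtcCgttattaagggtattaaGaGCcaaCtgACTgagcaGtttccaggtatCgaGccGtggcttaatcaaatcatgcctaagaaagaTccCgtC
Mcts1-201: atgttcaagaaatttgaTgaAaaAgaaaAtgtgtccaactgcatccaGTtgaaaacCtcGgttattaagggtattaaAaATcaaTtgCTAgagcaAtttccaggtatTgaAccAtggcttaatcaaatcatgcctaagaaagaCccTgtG
In these 150 bases 22 differed, and over the 543 coding bases 462 were identical (85.1%). Mcts2 had 179 and 170 counts and Mcts1 had 276 and 302, whole numbers in the first quantification, so these counts show no division of reads with another feature. Zrsr1 and Zrsr2 had 80.0% identity over 1279 aligned coding bases, and Zrsr1 counts were whole too in the first quantification. In the second they were not, at 390.42 in replicate 1 and 387.83 in replicate 2. On the TPM scale Mcts2 was below Mcts1 by 2.22-fold, and Zrsr1 over Zrsr2 changed sign between the libraries, with log2 ratios of 0.30 in replicate 1 and -0.11 in replicate 2. Among the 45 genes, counts of Snrpn and Commd1 were not whole within 0.005 in either library, and those of Meg3, Kcnq1ot1 and Inpp5f were not whole in replicate 2 only, which shows that some of their reads were divided with other features.

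Over the 24 pairs of neighbouring, nested or copied genes with counts in both members, both libraries had the first gene higher in 7 and lower in 15, and the sign changed between libraries in 2. In the second quantification the numbers were 8, 15 and 1. Which gene of a pair comes first was a choice, so the split into higher and lower is no result. Only the agreement of sign between libraries is read from it.

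**Figure D4:**
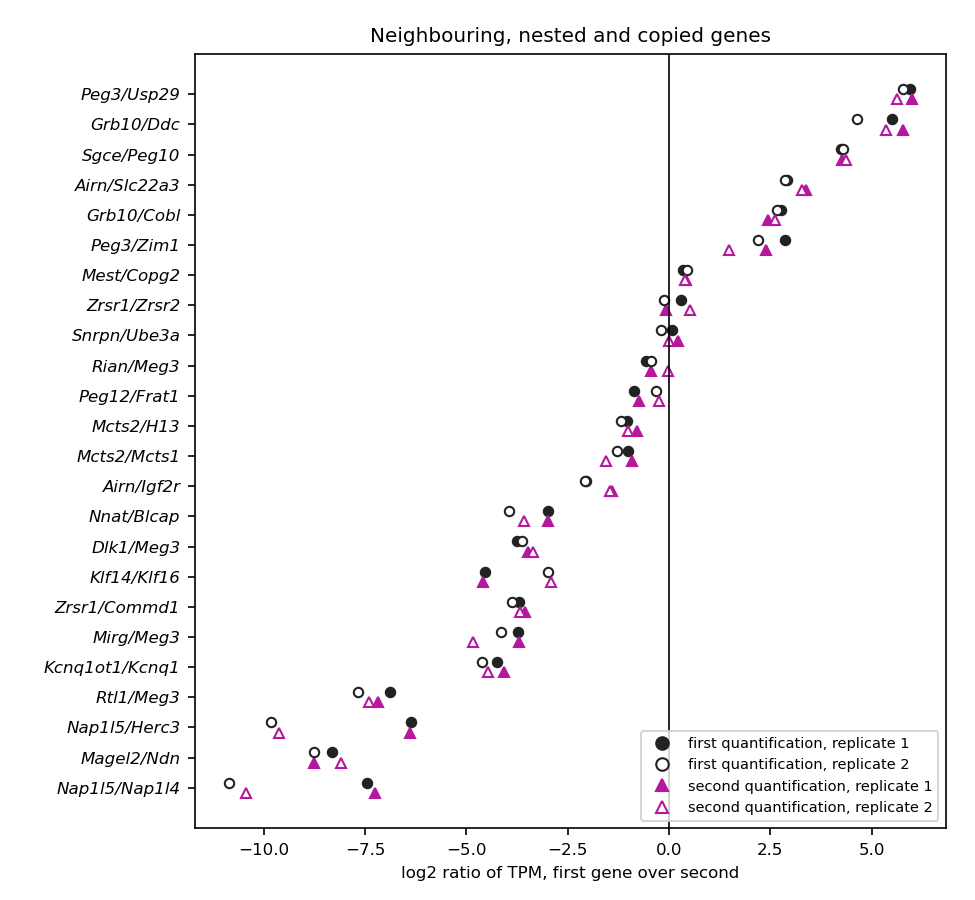
Log2 ratio of TPM, first gene over second, for 24 pairs in replicate 1 (filled) and replicate 2 (open), in the first (circles) and second (triangles) quantification. Pairs run down from Peg3/Usp29, at 5.95 in replicate 1 and 5.78 in replicate 2, to Nap1l5/Nap1l4, and the pairs with Nap1l5, which had 11 and 2 counts, differ most between the libraries.

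Genes of all 3 textbook classes were present. Of the 20 read mainly from the paternal copy, 12 were at 1 TPM or more in both libraries (median 3.12 TPM over genes), of the 10 maternal ones 6 (median 3.04 TPM), and of the 15 with imprinting limited to certain tissues or transcripts 14 (median 12.035 TPM). The classes come from background knowledge and say nothing of which copy was read in these hearts.

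Leading transcripts were mostly shared by both libraries. Of 23 imprinted genes at 5 TPM or more, 22 had several annotated transcripts, and for 21 of those 22 the same transcript led in both libraries (19 in the second quantification). The leader held at least 50% of the gene in 12 (11 in the second). The same transcript led in both quantifications for 16. Outside the genes described above, Cd81-201 held 97.5% and 97.9% of Cd81 in replicates 1 and 2, Casd1-201 82.1% and 91.0% of Casd1, Peg3-201 74.6% and 77.0% of Peg3, H13-202 70.0% and 75.0% of H13, and Sgce-205 73.5% and 57.6% of Sgce. In the second quantification Sgce-205 held 35.1% ± 24.0 (SD, n = 2), and it did not lead in both libraries there. The leader was not the same in both quantifications for Meg3, Snrpn, Ube3a, Gnas, Blcap and Airn. For Blcap the first put 77.9% and 63.7% on Blcap-202 and nothing on the farthest upstream start, to which the second gave 31.4% and 28.9%.

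Most imprinted genes had nearly the same level in both libraries. A gene was called different when its CPM after TMM scaling differed at least 1.5-fold, its mean expected count was at least 50, and the exact 95% counting interval of the ratio excluded 1, a rule of size that covers counting error only. Of the 35 imprinted genes with enough counts, 4 were called, against 4.02% of the 12876 genes tested. Within 1.2-fold were 28 of the 35 (80.0%), against 80.4% of all genes tested. The median log2 ratio of replicate 1 over replicate 2 was -0.03 for the 35, against -0.01 for all genes tested. With so few called genes and 2 libraries, nothing particular to the imprinted genes is read from these shares.

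Nnat (chromosome 2, 157560078 to 157562522, plus strand) was the gene called higher in replicate 1. It had 95 counts in replicate 1 and 55 in replicate 2, a CPM ratio of 1.69 (95% interval 1.20 to 2.40). Asb4 (chromosome 6, 5383386 to 5433022), Peg12 (chromosome 7, 62461871 to 62464510) and Ddc (chromosome 11, 11814101 to 11898144) were called higher in replicate 2. Asb4 had 242 counts in replicate 1 and 362 in replicate 2 (ratio 0.65, 0.55 to 0.77), Peg12 had 53 and 80 (0.65, 0.45 to 0.93), and Ddc had 42 and 62 (0.66, 0.44 to 0.99). Of all genes tested, 2.58% were called higher in replicate 1 and 1.44% higher in replicate 2. The airway genes with enough counts were 13.5-fold to 33.3-fold higher in replicate 1, where the erythroid and macrophage sums were higher too. Ucp1, Myh1 and Myh4 were higher in replicate 2 as given above. The part of such other RNA in the 4 calls was not tested. Ddc was not called with DESeq2 size factors or in the second quantification, and none of the 4 reached 2-fold.

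Ndn, with 321 and 423 counts and a ratio of 0.74 (0.64 to 0.86), differed by less than 1.5-fold and was not called. Mirg, whose ratio of 1.72 (1.07 to 2.81) rested on 51 and 29 counts, was below the count minimum. Gnas, the deepest of the genes, had a ratio of 0.92 (0.90 to 0.94). For 16 of the 35 genes the interval excluded 1, most of them with differences well under 1.5-fold. In all, 14 of the 35 were higher in replicate 1 and 21 lower. Neither was counted over all genes tested, so nothing particular to the imprinted genes is read from them.

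**Figure D5:**
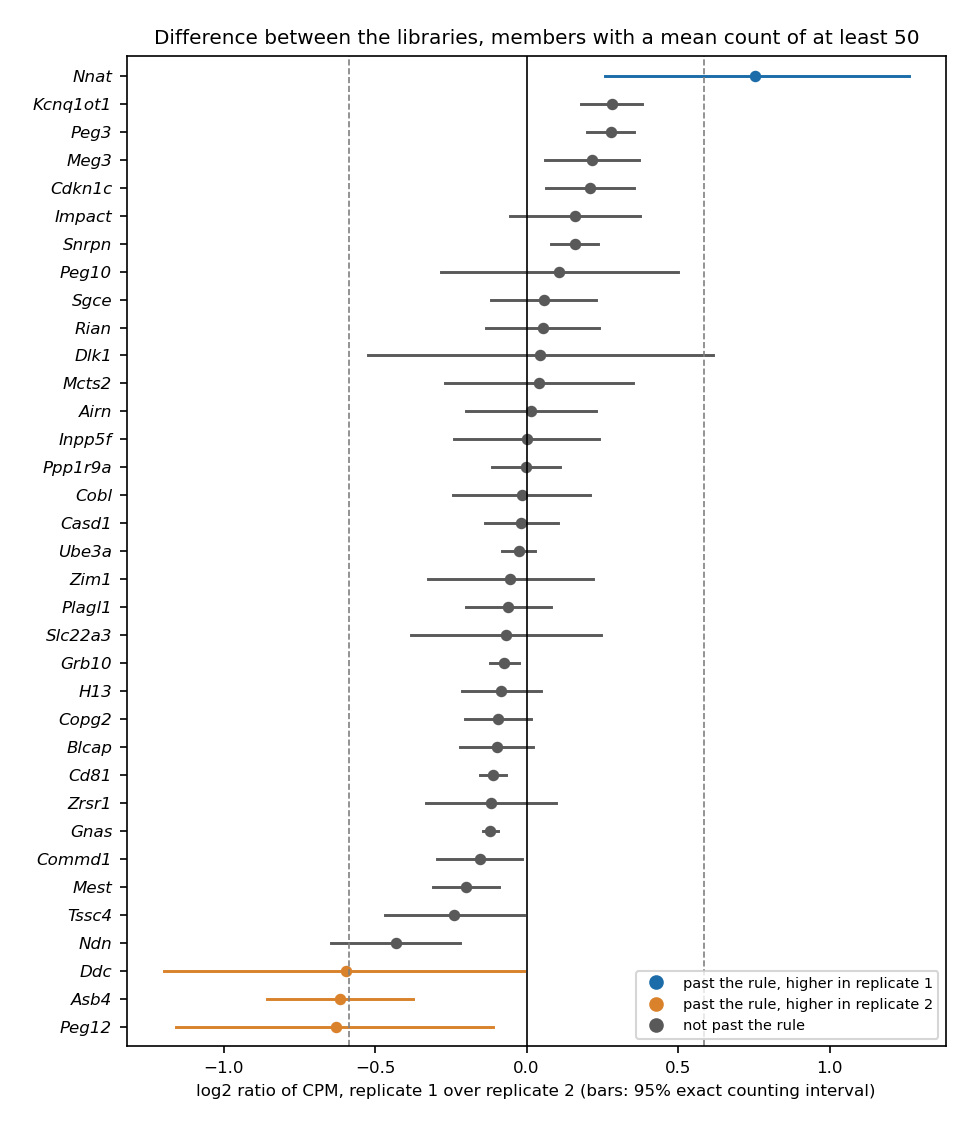
Log2 ratio of CPM, replicate 1 over replicate 2, with the exact 95% counting interval, for the 35 imprinted genes with a mean count of at least 50, and dashed lines at 1.5-fold. Nnat lies past the line on the side of replicate 1, and Peg12, Asb4 and Ddc lie past it on the side of replicate 2.

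Other imprinted genes, a list of 42 outside the 45, had 22 members at 1 TPM or more in both libraries (52.4%) and a median of 1.21 TPM. The share at that level was 22.8% of all annotated genes and 52.3% of all protein-coding genes. Its highest genes were Dcn, the matrix proteoglycan decorin of fibroblasts, at 185 and 172 TPM in replicates 1 and 2, Snurf (above), the histone chaperone gene Nap1l4 at 70.4 and 74.2 TPM, and Herc3. Of its 25 genes with enough counts, 2 were called, both higher in replicate 1. Of all genes tested 4.02% were called, 2.58% as higher in replicate 1, and nothing particular to the list is read from so few. Bcl2l1, an inhibitor of cell death, had 2043 counts in replicate 1 and 1043 in replicate 2 (ratio 1.91, 1.77 to 2.06), and Zdbf2, a zinc finger gene, had 153 and 87 (1.72, 1.31 to 2.26).

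A list of imprint keepers was measured as well. It also holds genes with other roles in DNA methylation and chromatin, the Tet genes among them. Of the 23 on the list, 19 were at 1 TPM or more in both libraries (82.6%), against 52.3% of all protein-coding genes. The median over the list was 9.99 TPM. The highest were the DNA methyltransferase gene Dnmt3a at 51.2 and 52.8 TPM in replicates 1 and 2, the corepressor Trim28 at 47.9 and 49.6 TPM, the zinc finger gene Zfp445, whose protein binds imprinted regions, at 47.4 and 40.9 TPM, and Mbd3 of the NuRD complex at 32.9 and 36.5 TPM. Zfp57, named after its values were seen because its hexamer is shown above, was much lower at 1.53 and 1.82 TPM. Hells, a chromatin remodeller needed for DNA methylation, was the 1 gene of the 21 tested that was called, against 4.02% of all genes tested. It had 48 counts in replicate 1 and 78 in replicate 2 (ratio 0.60, 0.41 to 0.87).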

How the data were processed

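Total RNA of P14 female B6CASTF1/J heart was measured in 2 libraries, which form 1 group. Per the file headers, the deposited tables of the first quantification hold expected counts per gene and transcript (estimated, not normalized), TPM, a posterior mean TPM, interval bounds (a score of precision within 1 library) and each transcript's percent of its gene. Column names are those of RSEM for this quantification and of kallisto for the second, whose deposited estimated counts and TPM per transcript were summed per gene. The deposited notes name mm10 and GENCODE M21. Aligner, program names and versions, and the treatment of CAST/EiJ alleles are not stated in the labels or notes.

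Only the 55536 annotated genes were used. Counts were scaled by TMM (edgeR 4.0.16, R 4.3.3; factors 0.986 and 1.01), with DESeq2 1.42.0 size factors as an alternative. CPM ratios between the libraries have exact Clopper-Pearson intervals (95%) that cover counting error only, as do limits from a count of 0 (3 counts). The rule of size was tested on simulated data. No model was fitted and no p-value is given, since the series has 1 group. Transcripts of a gene were put in 1 start group where their 5-prime ends lay within 1000 bases of the next, a choice made after the tables were seen. Coding sequences were aligned globally, and promoter windows were matched by symbol, leaving out chromosome 18 for the imprinted genes only. Other steps used Python 3.11.15 with scipy 1.17.1, pandas 2.3.3, numpy 2.4.6 and, for figures, matplotlib 3.10.9. Members, lists, pairs and rules were chosen with earlier results of these data known. Named genes are all members, both partners of the pairs, the 4 highest genes of the lists of other imprinted genes and of imprint keepers, and those of either list that met the rule.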

Additional observations from a re-analysis of the deposited data

How the results depend on the processing

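Of the 45 imprinted genes, 32 were at 1 TPM or more in both libraries, and the number was 33 without either replicate. The median over genes of the mean TPM was 6.23, between 5.86 and 6.60 without 1 replicate, 7.09 from the posterior means, 8.50 in the second quantification and 11.96 over genes at a mean of 1 TPM or more. The 4 calls between the libraries became 0 at a fold of 2, and 0 where log2(TPM + 1) had to differ by 1 or more with deposited intervals apart. Over all genes the 517 calls became 122 and 45 in the same settings. A count minimum of 10 gave 954 calls of 16392 genes (5.82%), and no filter on counts gave 1207 of 25477 (4.74%). For the imprinted genes, a count minimum of 10 gave 5 calls of 40 (Mirg added). No filter on counts gave 6 of 44 (Mirg and Nap1l5 added). DESeq2 size factors and the second quantification gave 3 each, of 35, against 4.08% and 3.94% of all genes tested. Nothing particular to the imprinted genes is read from these counts. Expected counts, not corrected for length, turned the log2 ratio of Mest/Copg2 to -0.019 (-0.07 in replicate 1 but 0.03 in replicate 2, so the turn was in replicate 1 alone) and that of Kcnq1ot1/Kcnq1 to 0.65, as the longer gene of each pair gains. Snrpn/Ube3a was 0.12 in the second quantification and lay between -0.19 and 0.071 without 1 replicate, against -0.06 over both libraries, and Zrsr1/Zrsr2 lay between -0.11 and 0.30 without 1 replicate, against 0.09. The cause of these turns was not tested. Transcript shares were the least stable values: the share of the leading transcript moved, in the second quantification, beyond the spread of the libraries for 20 of 23 genes. No paired analysis was possible because the series has 1 group. Depth limits the genes under 50 counts, 10 of the 45, and effective length limits the small RNAs.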

Other observations

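The second quantification gave a higher TPM than the first for 40 of the 45 imprinted genes, with a median ratio of 1.26. The same was true of 85.9% of all genes at 1 TPM or more, with a median ratio of 1.19. The deposited interval of a gene's TPM did not contain the deposited TPM itself in 10 of 90 values, from 7 of the 45 genes. Plagl1, with 25 annotated transcripts, is an example: it was at 9.76 and 9.94 TPM in replicates 1 and 2, with posterior means of 12.5 and 12.7 TPM, and at 12.6 and 15.2 TPM in the second quantification. The interval of Gnas also missed its TPM in both libraries.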
